A study of Mus musculus with 9 samples.

Results

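Expression was measured on 9 Affymetrix mouse gene arrays of long-term haematopoietic stem cells (LT-HSC), and 6 of the 9 arrays carried a Jak2 mutant allele. These 6 arrays were set against the 3 wild-type arrays. They comprised 3 Jak2VF arrays, from mice that the labels give as MxCre Jak2VF/+, and 3 Jak2VF_Ezh2KO arrays, given as MxCre Jak2VF/+ EZH2-/-. The control group was labelled WT. All mice were C57BL/6 and were injected with pI-pC when 4 weeks old (5 injections, each of 300 µg), and marrow was taken 12 weeks later. Flow cytometry took cells with Sca-1 and c-kit but without lineage markers, CD34 or CD135. MxCre is a Cre recombinase under an interferon-inducible promoter, pI-pC is the interferon-inducing agent that switches it on, and the promoter is active in many cell types besides stem cells. The labels do not say whether the WT mice carried MxCre, so Cre and the Jak2 allele cannot be told apart. They call the samples biological replicates and do not say whether a sample pooled several mice.

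Jak2 is the tyrosine kinase that sits on the receptors for erythropoietin, thrombopoietin, interferon-gamma and several other cytokines. It phosphorylates STAT transcription factors, which bind short DNA elements near their target genes. Elements known from interferon-responsive promoters include GAS (gamma-activated site) and ISRE (interferon-stimulated response element). The Jak2VF allele encodes a constantly active kinase and is known from myeloproliferative neoplasms, in which it arises in stem cells. Ezh2 is the methyltransferase subunit of Polycomb repressive complex 2.

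The genes that lay higher in both Jak2 mutant genotypes included the interferon-inducible GTPase Igtp (2.16-fold), the MHC class I transactivator Nlrc5 (1.59-fold), the MHC class II chain H2-Eb1 (1.73-fold) and mast cell and basophil genes (Mcpt8 3.40-fold, Cpa3 3.03-fold). The stem cell regulator Mecom lay lower. A gene was described as separated from WT when all 6 mutant arrays lay above the highest WT array, or all 6 below the lowest. The brightest probe set stood for each of 22180 genes. On the log2 scale of the arrays, 238 genes (1.07%) were separated on the higher side and 228 (1.03%) on the lower side, 466 in all (2.1%). Probe sets with no gene symbol or several gave 1.07% and 1.22%. Some genes separate in this way without any genotype difference, and whether these shares exceed that level was not tested. None of the 22180 genes passed limma's moderated test of the mean of both mutant groups against WT at a Benjamini-Hochberg adjusted p of 0.05 (0% called), and the smallest adjusted p was 0.171. At an unadjusted p under 0.05 the same limma fit gave 1482 genes (6.68%), of which 829 (3.74%) lay higher and 653 (2.94%) lower. Ordinary least squares gave 0 genes after adjustment. Values below are therefore descriptions of separation between arrays, and each adjusted p is that of limma over all genes. The split between sides depended on the scaling: it was 395 higher to 262 lower after quantile normalization and 330 to 194 after subtracting array medians, and 186 and 185 of the 238 higher genes were still separated.

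Array medians lay between 5.51 and 5.67, and correlations between arrays over genes lay between 0.898 and 0.968. Y-linked signal was present in Jak2VF_Ezh2KO arrays 1 and 2 and in no other array, so sex is partly tied to genotype. Without these 2 arrays 447 genes were separated on the higher side and 353 on the lower. Leaving out WT array 2 moved these counts most: without it 1685 genes were separated higher and 1221 lower, and 11 genes passed the adjusted test, among them Cd48 (1.43) and Tjp1 (1.51). Without WT array 3, Fbp1 alone passed (-1.64, limma adjusted p = 0.0153). Without Jak2VF_Ezh2KO array 3, 5 sex-linked genes passed, led by Xist. Kit ranged from 9.43 to 10.18 over the arrays, while the lymphoid genes Cd3e, Cd8a and Ms4a1 stayed at or below 5.16 and Cd4 reached 6.01. Cd34 lay between 9.91 and 10.68 in spite of the CD34-negative gate. Flt3, which encodes CD135, lay between 6.91 and 8.03 although the gate excluded CD135. The myeloid genes Itgam and Ly6g reached 6.43 and 6.67, with medians of 6.15 and 4.15. Olfactory and vomeronasal receptor genes, which stem cells are not known to use, had a median level of 3.95 with a 95th percentile of 6.10, and many levels below are near or under that.

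The targeted genes did not separate. Jak2 was 7.91, 8.11 and 8.09 on the WT arrays, 8.23, 8.52 and 8.11 on those of Jak2VF, and 7.93, 7.90 and 7.66 on those of Jak2VF_Ezh2KO. The mean difference was 0.02 ± 0.13 (SE, adjusted p = 0.978) and turned negative under quantile normalization, at -0.042. Ezh2 was 8.48, 8.81 and 8.69 on the WT arrays, 8.87, 9.09 and 8.78 on those of Jak2VF, and 8.47, 8.08 and 8.42 on those of Jak2VF_Ezh2KO. All 3 knockout arrays were below all 3 WT arrays and all 3 Jak2VF arrays were above or within them, so the pooled difference was -0.04 ± 0.14 (SE, adjusted p = 0.965) and became 0.0090 without the Y-signal arrays. The RNA level of a point-mutated gene does not check the Jak2 label, and whether the Ezh2 probes fall in the deleted exons is not stated, so the Ezh2 level is no full check either.

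The 238 genes on the higher side were brighter than those on the lower side. Their median level over the 9 arrays was 6.66, against 5.20 for the 228 lower genes and 5.76 for all genes. In the dimmer part of the array lay 61 of the higher genes (25.6%) and 152 of the lower genes (66.7%). Predicted genes, clones, small RNA genes and receptors, which are counted and not named here, made up 33 of the higher genes (13.9%), 83 of the lower (36.4%) and 23.1% of all genes. The median difference was 0.38 among the higher genes and -0.36 among the lower. Most separations were narrow. The gap, meaning the distance between the nearest mutant and nearest WT array, was at least 0.1 for 85 higher and 77 lower genes and at least 0.5 for 7 and 3. At the edge of the rule, Ccnjl was inside by 0.00038 and Etohd2 by 0.0011, while Ctsw and Zbtb16 were outside with gaps of -0.00057 and -0.00061.

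**Figure D1:**
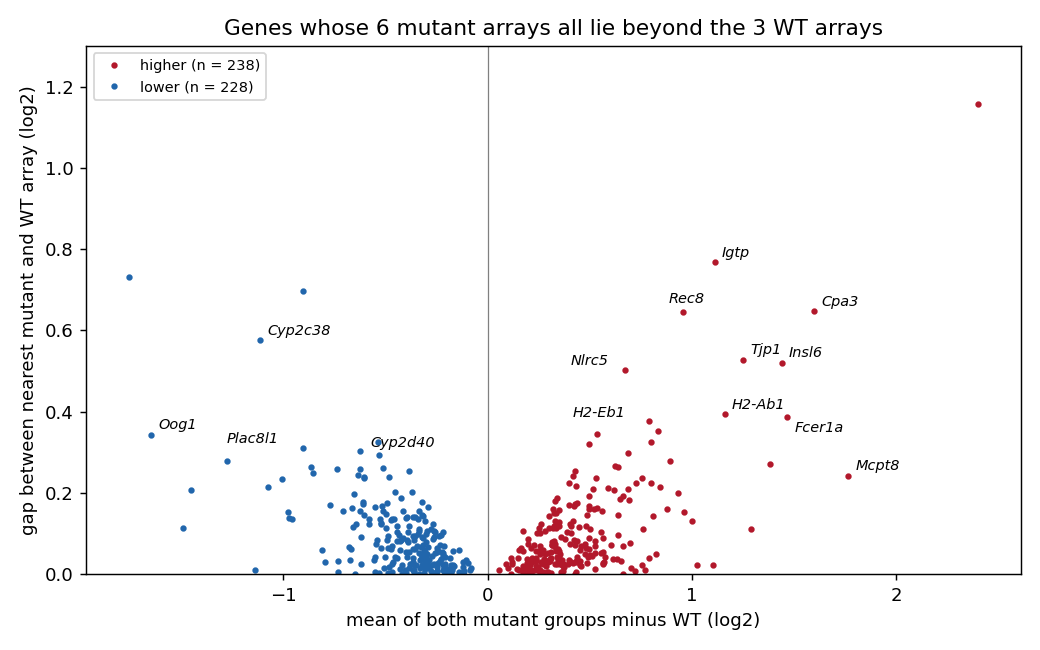
Each point is 1 of the 238 higher or 228 lower genes. The horizontal axis is the mean of both mutant groups minus WT (log2), and the vertical axis is the gap between the nearest mutant and nearest WT array (log2). Most genes lie below a gap of 0.1, and Igtp, Cpa3, Rec8, Insl6, Tjp1 and Nlrc5 lie above 0.5 among the named higher genes.

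Genes of the interferon-gamma response were, on the deposited values, the list with the largest share of separated members. Of 31 measured members, 8 lay higher in all 6 mutant arrays (25.8%, beside 1.07% of all genes): the GTPases Igtp, Iigp1, Irgm1 and Irgm2, the MHC class II chains H2-Ab1 and H2-Eb1, and the regulators Irf8 and Nlrc5. Gbp6, a guanylate-binding GTPase, was the 1 member lower. The list median was 0.35, beside 0.0064 over all genes, and 27 members had a positive difference, as did 51.6% of all genes. With single arrays left out the count of higher members was between 8 and 11, where 11 was reached without WT array 2 (beside 7.6% of all genes) and without Jak2VF_Ezh2KO array 2 (beside 1.46%). Without both Y-signal arrays it was 14 of 31 (beside 2.02%). After quantile normalization (beside 1.78%) it was 6 of 31, and the order of the lists changed, with 7 of 24 mast cell and basophil genes and 4 of 17 MHC class I genes separated higher.

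Igtp, an immunity-related GTPase that guards against intracellular parasites, was 7.18, 7.03 and 7.14 on the WT arrays. It read 7.95, 8.34 and 8.48 on those of Jak2VF and 7.95, 8.10 and 8.54 on those of Jak2VF_Ezh2KO. The lowest mutant array lay 0.77 above the highest WT array, the widest gap among the genes named here. The difference was 1.11 ± 0.16 (SE), or 2.16-fold, with adjusted p = 0.310. Irgm2, of the same family, was 8.03, 8.06 and 7.66 on the WT arrays, 8.43, 8.40 and 9.14 on those of Jak2VF, and 8.13, 8.91 and 8.65 on those of Jak2VF_Ezh2KO. Its groups were separated by only 0.08, and the difference was 0.70 ± 0.22 (SE, adjusted p = 0.733). Irgm1, also of this family, was 7.52, 7.33 and 6.83 in WT and 7.82, 7.81 and 7.74 in Jak2VF_Ezh2KO, and read 7.55 on all 3 Jak2VF arrays. Iigp1, which acts at parasite vacuoles, was 8.07, 7.12 and 6.85 on the WT arrays, 8.18, 8.27 and 9.42 on those of Jak2VF, and 8.40, 8.79 and 8.76 on those of Jak2VF_Ezh2KO. WT array 1 was its highest WT value, 0.11 below the nearest mutant array, and the difference was 1.29 ± 0.32 (SE, adjusted p = 0.680).

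Both class II chains, which present extracellular peptides to helper T cells, were separated. H2-Ab1 was 8.10, 7.55 and 7.98 on the WT arrays, 8.50, 9.16 and 10.12 on those of Jak2VF, and 8.65, 8.81 and 8.996 on those of Jak2VF_Ezh2KO. The difference was 1.16 ± 0.30 (SE, adjusted p = 0.680), and Jak2VF array 3 stood highest. H2-Eb1 was 6.11, 5.78 and 6.07 on the WT arrays, 6.69, 7.10 and 7.18 on those of Jak2VF, and 6.49, 6.49 and 6.71 on those of Jak2VF_Ezh2KO. Its difference was 0.79 ± 0.14 (SE, adjusted p = 0.351). H2-Aa, the partner chain of H2-Ab1, overlapped: WT lay between 6.10 and 7.15, and Jak2VF_Ezh2KO array 1 was at 6.47. Ciita, the class II transactivator, was 6.42, 6.23 and 6.45 in WT and between 5.92 and 6.72 in the mutants, a difference of -0.12 ± 0.16 (SE, adjusted p = 0.897).

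Nlrc5, the transactivator of MHC class I genes, was 6.13, 6.26 and 6.24 on the WT arrays, 6.77, 7.08 and 6.90 on those of Jak2VF, and 6.77, 6.77 and 7.03 on those of Jak2VF_Ezh2KO. The difference was 0.67 ± 0.12 (SE, adjusted p = 0.310), with a gap of 0.50. Irf8, a transcription factor of monocyte and dendritic cell development, was 5.89, 6.41 and 5.55 on the WT arrays, 6.69, 6.78 and 6.82 on those of Jak2VF, and 6.71, 7.10 and 6.97 on those of Jak2VF_Ezh2KO. Its difference was 0.89 ± 0.18 (SE, adjusted p = 0.446). The dimmer Irf8 probe set gave 0.26 and overlapped. Irf1, an interferon-induced transcription factor, lay between 6.53 and 6.99 in WT and between 6.73 and 7.31 in the mutants, with a difference of 0.18 ± 0.15 (SE, adjusted p = 0.835).

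**Figure D2:**
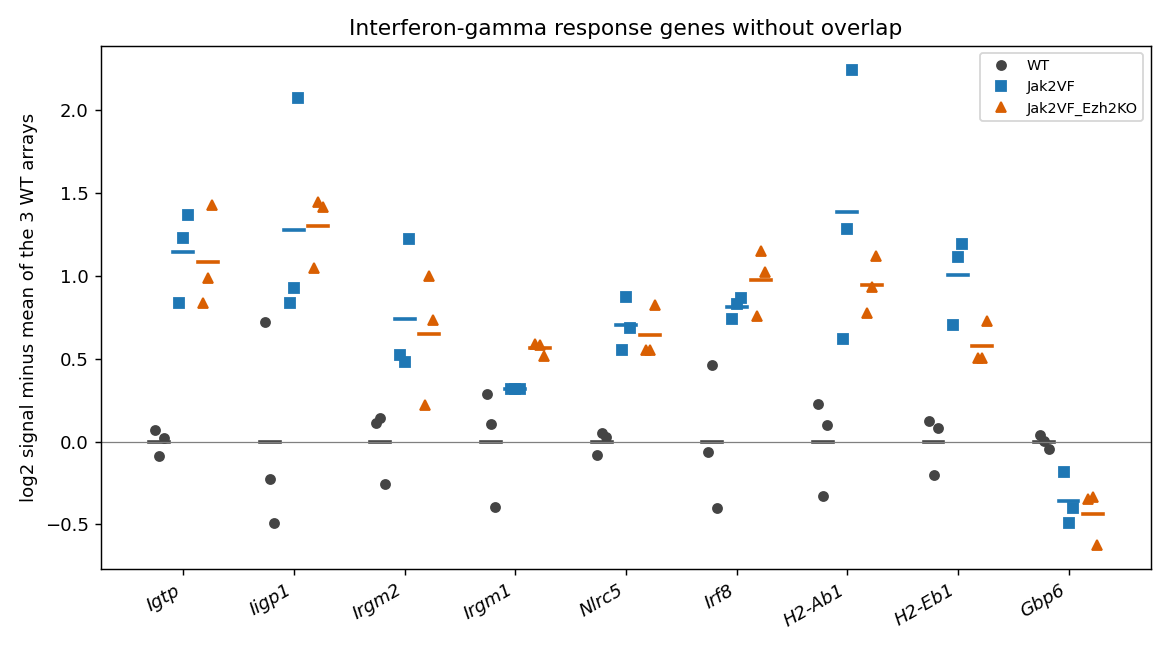
Log2 signal minus the mean of the 3 WT arrays, per array, for interferon-response and MHC genes, with WT, Jak2VF and Jak2VF_Ezh2KO arrays as separate points and a bar at each group mean. Igtp shows the widest gap among the genes drawn (0.77), which separates log2 levels of 7.03 to 7.18 in WT from 7.95 to 8.54 in the mutants.

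Promoter sequence was examined for the separated genes in the RefSeq windows of build GRCm38.p6, from 250 bases before to 50 bases after a start site. Of the 63 separated genes that are described by role or by the rule for named genes, windows of 46 were read gene by gene. For the rest, the absence of a window here does not show that none exists. Motifs were searched on both strands of the full windows and could overlap each other. GAS (TTCNNNGAA) was present in 17 of 230 windows of higher genes and 14 of 201 of lower genes, beside 7.89% of all 20611 windows. The ISRE-like motif (GAAA, any 2 bases, GAAA) was present in 13 of 230 and 13 of 201, beside 3.3%. The GATA core (AGATAA) was found in 22 and 21 windows (9.66% of all), the Y box (ATTGG) in 86 and 81 (37.7%), and the E2F motif (TTTCCCGC) in 0 and 1 (1.41%). The 250 bases before the start site are shown for the immunity-related GTPase genes Igtp, Irgm2 and Irgm1 and for Irf8, because these windows hold GAS or ISRE-like matches. They are also shown for H2-Eb1, because class II promoters carry a Y box. Capitals mark GAS and ISRE-like matches in the first 4 and Y box matches in H2-Eb1.
Igtp, chr11:58199306-58199555, plus strand: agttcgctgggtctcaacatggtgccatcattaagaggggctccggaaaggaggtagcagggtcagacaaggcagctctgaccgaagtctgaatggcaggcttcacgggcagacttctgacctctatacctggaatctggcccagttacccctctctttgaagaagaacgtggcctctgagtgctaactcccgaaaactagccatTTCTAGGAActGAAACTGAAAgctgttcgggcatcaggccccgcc
Irgm2, chr11:58214727-58214976, plus strand: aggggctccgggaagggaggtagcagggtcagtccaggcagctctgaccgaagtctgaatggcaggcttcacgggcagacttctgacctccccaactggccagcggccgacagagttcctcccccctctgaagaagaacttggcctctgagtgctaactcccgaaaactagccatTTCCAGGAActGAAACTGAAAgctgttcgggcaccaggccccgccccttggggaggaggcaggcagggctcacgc
Irgm1, chr11:48871421-48871670, minus strand: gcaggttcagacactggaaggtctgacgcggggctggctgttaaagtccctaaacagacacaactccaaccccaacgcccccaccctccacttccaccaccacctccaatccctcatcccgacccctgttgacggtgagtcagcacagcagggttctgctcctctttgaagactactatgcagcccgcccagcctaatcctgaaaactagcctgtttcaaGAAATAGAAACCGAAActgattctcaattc
Irf8, chr8:120736108-120736357, plus strand: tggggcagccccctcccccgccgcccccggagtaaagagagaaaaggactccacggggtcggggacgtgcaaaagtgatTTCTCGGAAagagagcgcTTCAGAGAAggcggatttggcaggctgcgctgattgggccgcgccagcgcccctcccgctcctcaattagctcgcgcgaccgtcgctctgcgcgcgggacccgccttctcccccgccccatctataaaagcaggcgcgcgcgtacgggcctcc
H2-Eb1, chr17:34305617-34305866, plus strand: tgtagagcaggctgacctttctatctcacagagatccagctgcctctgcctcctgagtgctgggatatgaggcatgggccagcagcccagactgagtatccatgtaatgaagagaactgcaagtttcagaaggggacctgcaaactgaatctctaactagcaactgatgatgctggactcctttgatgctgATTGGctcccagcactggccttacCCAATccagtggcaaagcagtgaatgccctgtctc
Igtp and Irgm2 each had a GAS match followed closely by an ISRE-like match, starting 45 and 34 bases before the Igtp start site and 75 and 64 bases before that of Irgm2. These windows shared an unbroken run of 55 bases, so the matches are not independent of each other. Irgm1 shared at most 11 bases with either and had 2 overlapping ISRE-like matches, 30 and 24 bases before the start. Irf8 had 2 GAS matches in the window shown, 171 and 153 bases before the start, and 0 in its other window. H2-Eb1 had Y boxes at 59 and 35 bases. The motifs were not limited to the windows shown: GAS was also present in windows of the higher genes Il18r1 and Socs3. An ISRE-like match was present in windows of the lower genes Mecom and Mmrn1 and of the higher genes Psme1 and Trim12a. A match is a description of letters and was not tested for binding.

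MHC class I and peptide-loading genes lay on the higher side in the pooled difference, by small amounts. All 17 measured members had a positive difference, with a median of 0.22, and 3 were separated (17.6%, beside 1.07%): Nlrc5, the class I heavy chain H2-K1 and the proteasome activator Psme1. By genotype the median was 0.26 in Jak2VF and 0.15 in Jak2VF_Ezh2KO. Averaged over the list and set against WT, the mutant arrays ran from 0.080 to 0.51. The lowest, Jak2VF_Ezh2KO arrays 1 and 2 at 0.080 and 0.085, were close to WT array 2 at 0.070. H2-K1 was 8.89, 9.19 and 9.15 on the WT arrays, 9.31, 9.76 and 9.30 on those of Jak2VF, and 9.31, 9.38 and 10.08 on those of Jak2VF_Ezh2KO, a difference of 0.45 ± 0.19 (SE, adjusted p = 0.747). Psme1 differed by 0.36 ± 0.12 (SE, adjusted p = 0.733). Tap1, the peptide transporter, missed separation narrowly, with WT between 7.50 and 8.07 and the lowest mutant array at 8.05. Without the Y-signal arrays 6 of 17 were separated, beside 2.02% of all genes, and without WT array 1 it was 5, beside 2.24%.

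Type I interferon genes showed the same sign but fewer separations. A positive difference was found for 28 of 31 members, with a median of 0.22, and 2 were separated (6.45%, beside 1.07%). Usp18, which switches off the type I receptor, was 6.52, 6.24 and 6.00 on the WT arrays, 6.74, 6.88 and 7.32 on those of Jak2VF, and 7.06, 6.82 and 7.07 on those of Jak2VF_Ezh2KO, a difference of 0.73 ± 0.16 (SE, adjusted p = 0.505). Zbp1, a sensor of Z-form nucleic acid, was 6.67, 6.48 and 6.36 on the WT arrays, 6.78, 6.99 and 7.34 on those of Jak2VF, and 7.69, 7.08 and 7.69 on those of Jak2VF_Ezh2KO, a difference of 0.76 ± 0.18 (SE, adjusted p = 0.558). Trim12a, a member of an antiviral family that belongs to none of the lists, differed by 1.02 ± 0.19 (SE, adjusted p = 0.358) with a gap of 0.02. Without WT array 2, 10 of the 31 type I members were separated higher, beside 7.6% of all genes.

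Feedback inhibitors and other STAT targets mostly overlapped WT. Of 31 measured members only Socs3 was separated (3.23%, beside 1.07%), and the list median was 0.17, with a positive difference in 23 members. Socs3, which binds Jak2 and blocks it, was 6.01, 5.92 and 5.72 in WT and between 6.08 and 6.22 in the mutants, a difference of 0.26 ± 0.11 (SE, adjusted p = 0.747). The dimmer Socs3 probe set gave 0.39 and overlapped. Pim1, a STAT5-induced kinase, was 6.76, 7.69 and 6.90 on the WT arrays, 7.69, 8.22 and 8.07 on those of Jak2VF, and 7.45, 7.69 and 7.97 on those of Jak2VF_Ezh2KO, so WT array 2 lay inside the mutant range. Cish, the textbook STAT5 target, differed by -0.28 in Jak2VF and 0.93 in Jak2VF_Ezh2KO, and both groups were compared with the same WT arrays. Socs1 differed by 0.17 ± 0.17 (SE, adjusted p = 0.857). Socs2 differed by -0.07 on its brighter probe set and 0.55 on the other. Of 32 measured Jak, Stat and cytokine receptor genes, 0 were separated in either direction. Without WT array 2 the higher counts were 7 of 31 STAT targets and 3 of 32 of these genes, beside 7.6% of all genes, so the latter stayed near the background.

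**Figure D3:**
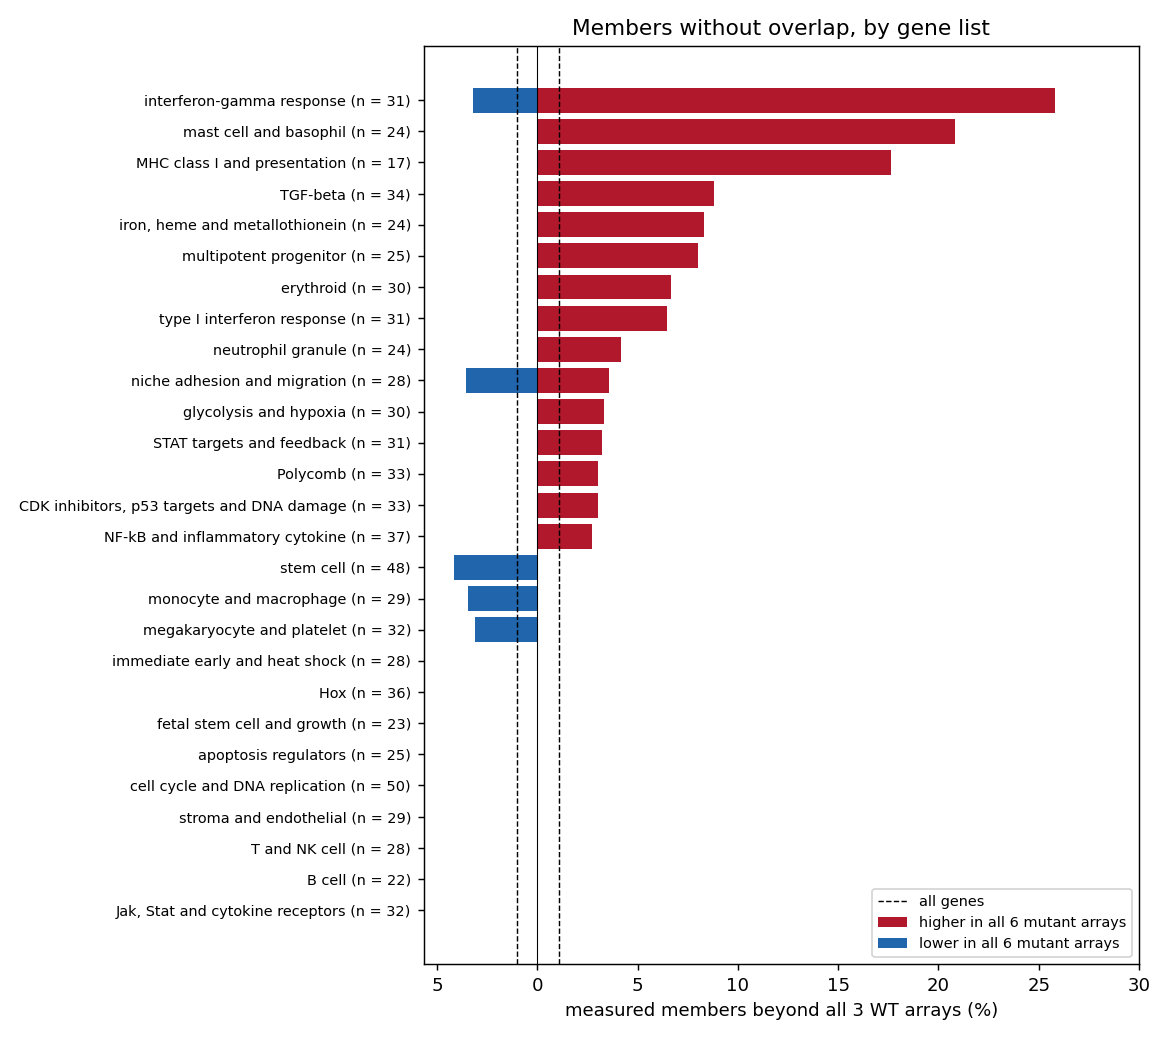
Share of measured members (n beside each list) whose 6 mutant arrays all lie above the WT arrays (bars to the right) or below them (bars to the left), in percent, with dashed lines at 1.07% and 1.03% for all genes. The interferon-gamma (25.8%), mast cell and basophil (20.8%) and MHC class I (17.6%) lists have the longest bars, and lists may share members such as Nlrc5 and Irf8.

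Mast cell and basophil genes were the other group with many separated members. Of 24 measured, 5 lay higher in all 6 mutant arrays (20.8%, beside 1.07%) and 0 lay lower. The list median was 0.22, with a positive difference in 17 members and a negative one in 7. By genotype the median was 0.096 in Jak2VF and 0.29 in Jak2VF_Ezh2KO. At an unadjusted limma p under 0.05, 7 members lay higher and 1 lower, beside 3.74% and 2.94% of all genes. The separated members were the protease genes Mcpt8 and Cpa3, the high-affinity IgE receptor subunits Fcer1a and Ms4a2, and Hdc, which makes histamine. The mean of the list, on the log2 scale relative to the WT average, was between -0.05 and 0.07 in WT and between 0.17 and 0.55 in the mutants. In bulk samples, more cells of a type and more RNA per cell cannot be told apart. With single arrays left out the count was between 5 and 7, and the 7 came without WT array 2, beside 7.6% of all genes. Of the 11 members in the brighter part of the array, 2 were separated, beside 1.6% of all genes there.

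Mcpt8, a basophil protease, was 6.78, 6.16 and 5.52 on the WT arrays, 7.03, 7.68 and 7.64 on those of Jak2VF, and 8.61, 8.02 and 8.53 on those of Jak2VF_Ezh2KO. All 3 knockout arrays were above all 3 Jak2VF arrays, and the difference from WT was 1.77 ± 0.27 (SE, adjusted p = 0.310), or 3.40-fold. Cpa3, a mast cell carboxypeptidase, was 7.31, 7.71 and 6.29 on the WT arrays, 8.36, 8.36 and 8.91 on those of Jak2VF, and 9.42, 8.71 and 8.47 on those of Jak2VF_Ezh2KO. The gap was 0.65 and the difference 1.60 ± 0.31 (SE, adjusted p = 0.446). Fcer1a was 4.51, 4.32 and 5.18 on the WT arrays, 6.00, 7.22 and 5.65 on those of Jak2VF, and 6.02, 5.57 and 6.36 on those of Jak2VF_Ezh2KO, a difference of 1.47 ± 0.34 (SE, adjusted p = 0.551). Its WT values, and its mutant values other than 7.22 and 6.36, lie under the receptor-gene 95th percentile of 6.10. Ms4a2 and Hdc were dimmer still, with every mutant array but 1 for each below 5.13 and differences of 0.49 ± 0.19 and 0.20 ± 0.10 (SE, adjusted p = 0.739 and 0.766). Of the 6 mutant Ms4a2 values, 3 read an identical 4.52. Gata2, which mast cells share with stem cells, overlapped by a narrow margin, with WT array 2 at 8.22 and the lowest mutant array at 8.21.

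**Figure D4:**
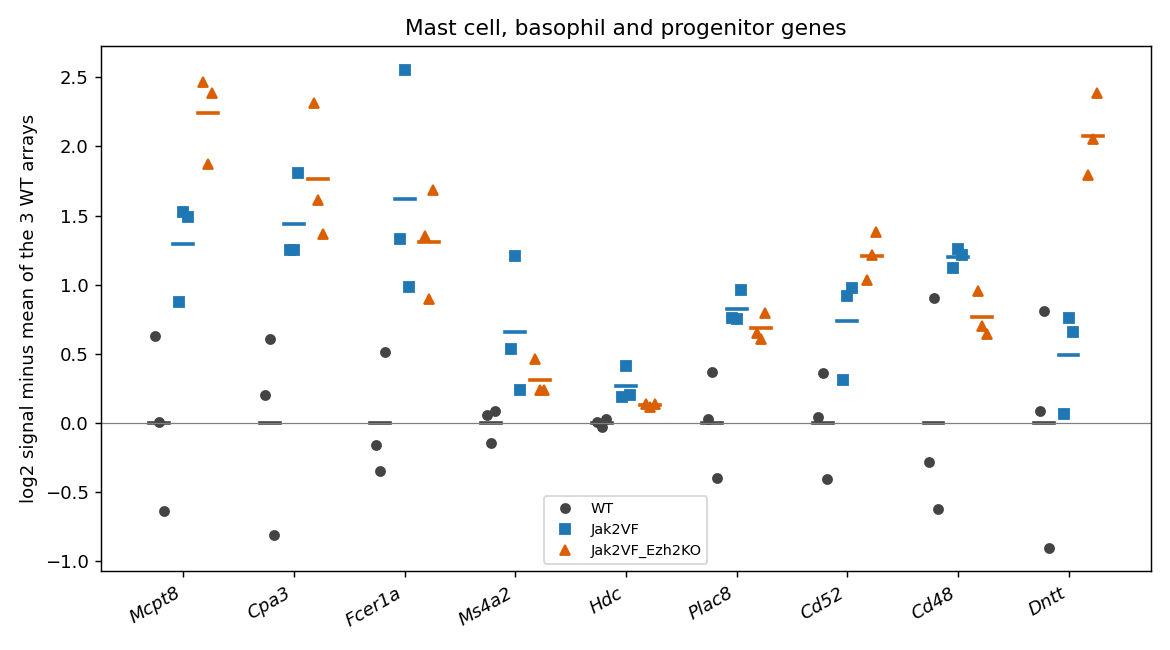
Log2 signal minus the mean of the 3 WT arrays, per array, for mast cell, basophil and progenitor genes, with a bar at each group mean. Cpa3 and Mcpt8 are separated from WT by 0.65 and 0.24, whereas Cd48, Cd52 and Dntt overlap WT.

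Multipotent progenitor genes lay on the higher side in 23 of 25 measured members, with a median of 0.37, and 2 were separated (8%, beside 1.07%): Irf8 and Plac8. The list median was unequal between the genotypes, at 0.49 in Jak2VF and 0.12 in Jak2VF_Ezh2KO. Plac8 was 9.47, 9.81 and 9.04 on the WT arrays, 10.20, 10.19 and 10.40 on those of Jak2VF, and 10.09, 10.04 and 10.23 on those of Jak2VF_Ezh2KO, a difference of 0.76 ± 0.16 (SE, adjusted p = 0.488). Cd48, which marks progenitors and is low on stem cells, was 7.64, 8.82 and 7.30 on the WT arrays, 9.04, 9.18 and 9.13 on those of Jak2VF, and 8.87, 8.62 and 8.56 on those of Jak2VF_Ezh2KO. WT array 2 alone kept it from separating. Without that array 8 of 25 members were separated, beside 7.6% of all genes. The list mean was -0.06, 0.39 and -0.33 in WT and between 0.15 and 0.64 in the mutants, so WT array 2 lay inside the mutant range. Cd52, a surface antigen of lymphoid and progenitor cells, missed separation narrowly, with WT array 2 at 7.69 and the lowest mutant array at 7.64, and had a difference of 0.97 ± 0.20 (SE, adjusted p = 0.457). Dntt, the lymphoid terminal transferase, differed by 0.49 in Jak2VF and 2.08 in Jak2VF_Ezh2KO and overlapped.

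Stem cell genes leaned to the lower side. Of 48 measured members, 35 had a negative difference, the median was -0.11, and 2 were separated lower (4.17%, beside 1.03%) and 0 higher. The lean was unequal between the genotypes, with medians of -0.14 in Jak2VF and -0.049 in Jak2VF_Ezh2KO. Averaged over the list and set against WT, Jak2VF_Ezh2KO array 3 was at 0.072, above the highest WT array (0.015). The other mutant arrays were between -0.31 and -0.035, below every WT array. Mecom, a transcription factor needed for stem cell self-renewal, was 7.90, 7.55 and 7.83 on the WT arrays, 6.91, 7.09 and 7.16 on those of Jak2VF, and 7.37, 7.17 and 7.54 on those of Jak2VF_Ezh2KO. The highest mutant array lay 0.01 below the lowest WT array, and the difference was -0.55 ± 0.13 (SE, adjusted p = 0.563). The other Mecom probe set gave -0.38 and overlapped. Mllt3, which maintains stem cells in culture, was 8.04, 7.97 and 7.94 on the WT arrays, 7.46, 7.25 and 7.55 on those of Jak2VF, and 7.86, 7.66 and 7.78 on those of Jak2VF_Ezh2KO, a difference of -0.39 ± 0.11 (SE, adjusted p = 0.733). The markers Procr, Hlf, Slamf1, Fgd5 and Meis1 lay lower by between -0.26 and -0.13 and overlapped, and Hoxb5 was 0.16 higher. Without WT array 2, or without Jak2VF_Ezh2KO array 3, 4 members were separated lower, beside 5.5% and 1.18% of all genes. Emcn, a sialomucin of stem and endothelial cells, was low in Jak2VF (5.92 to 6.43) and overlapped WT (7.43 to 7.63) in Jak2VF_Ezh2KO (6.63 to 7.74).

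Mmrn1, a platelet and endothelial protein also present in stem cells, was the 1 separated gene of 32 megakaryocyte and platelet members. It was 7.97, 7.63 and 8.32 on the WT arrays, 6.89, 7.32 and 7.51 on those of Jak2VF, and 7.51, 7.16 and 7.48 on those of Jak2VF_Ezh2KO, a difference of -0.66 ± 0.19 (SE, adjusted p = 0.733). Lyz1, a lysozyme of macrophages and Paneth cells, was the 1 separated of 29 monocyte and macrophage members, lower by -0.52 ± 0.15 (SE, adjusted p = 0.733). Of its 6 mutant values, 3 read an identical 6.19. Jam2, a junctional adhesion molecule, was lower by -0.40, and Itgb7, an integrin chain used in homing, was higher by 0.64 with WT between 5.93 and 5.99 and the mutants between 6.25 and 6.94. These were the separated genes among 28 for niche adhesion and migration. Beside 1.07% higher and 1.03% lower among all genes, 1 member of a list of about this size is close to the background.

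**Figure D5:**
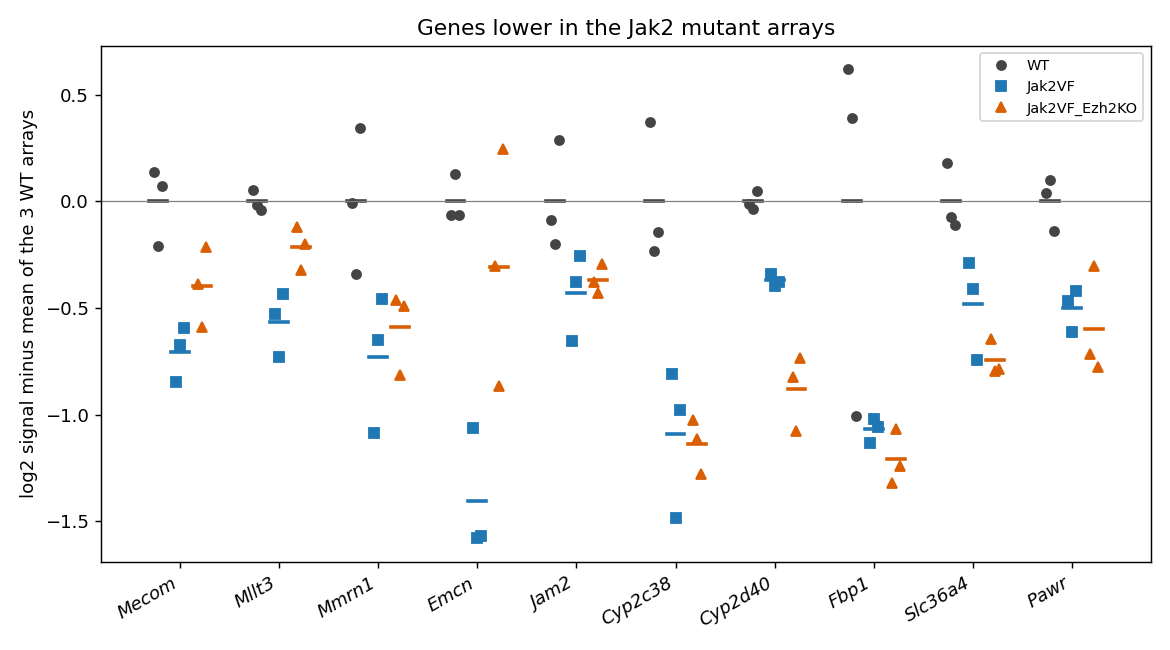
Log2 signal minus the mean of the 3 WT arrays, per array, for stem cell and other genes on the lower side, with a bar at each group mean. Mecom clears the lowest WT array by 0.01 and Cyp2c38 by 0.58, while Emcn overlaps WT in the Jak2VF_Ezh2KO group.

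Among the remaining lists, TGF-beta had 3 of 34 members separated higher (8.82%, beside 1.07%): the ligand Tgfb1 (0.42 ± 0.17), its accessory receptor Tgfbr3 (0.32 ± 0.11) and the activin receptor Acvr2a (0.31 ± 0.11, all SE). Tgfb1 was 8.57, 9.04 and 8.89 in WT and between 9.07 and 9.72 in the mutants. Of 30 erythroid members, 2 were separated higher (6.67%, beside 1.07%). Fech, which inserts iron into heme, was 0.43 ± 0.14 higher and Tfrc, the transferrin receptor, 0.79 ± 0.27 (SE, adjusted p = 0.733 for both). These also belong to the iron and heme list, where they were 2 of 24 (8.33%). The erythroid list as a whole was unequal between the genotypes, with a median of -0.0079 in Jak2VF and 0.46 in Jak2VF_Ezh2KO. Tfrc was 6.89, 7.85 and 7.95 in WT and from 7.99 to 8.998 in the mutants, so WT array 1 set much of its difference. Single higher members were Ngp of 24 neutrophil granule genes, Gadd45g of 33 CDK inhibitor, p53 and DNA damage genes, Nfkbie of 37 NF-kB and inflammatory genes, Phc3 of 33 Polycomb genes and Hk1 of 30 glycolysis genes. Hk1, the first enzyme of glycolysis, was 7.36, 7.35 and 7.15 in WT and between 7.52 and 7.75 in the mutants. No member was separated among 50 cell cycle, 22 B cell, 28 T and NK cell, 29 stroma, 25 apoptosis, 23 fetal stem cell, 36 Hox and 28 immediate early genes. Some of these lists leaned one way without separating: 24 of 28 immediate early genes (median 0.24) and 42 of 50 cell cycle genes (median 0.14) had a positive difference, and 19 of 23 fetal stem cell genes (median -0.13) a negative one, beside 51.6% positive among all genes. The cell cycle median was 0.29 in Jak2VF and -0.012 in Jak2VF_Ezh2KO. Corresponding medians were 0.17 and 0.36 for immediate early genes and -0.18 and -0.093 for fetal stem cell genes. Averaged over the cell cycle list and set against WT, the Jak2VF arrays were at 0.17, 0.66 and -0.00032. The WT arrays ran from -0.33 to 0.30, and Jak2VF array 2 was the only mutant array outside that range. Without WT array 2, when 7.6% of all genes were separated higher, the counts were 8 glycolysis, 8 CDK inhibitor, 7 TGF-beta, 7 Polycomb, 7 cell cycle, 6 immediate early, 6 iron and heme, 5 erythroid and 5 apoptosis genes.

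Several genes outside the lists were among the smallest unadjusted p-values on the higher side. Insl6, a relaxin-family gene known from testis that lies next to Jak2 in the RefSeq gene order of GRCm38.p6, was 6.02, 6.27 and 5.19 on the WT arrays, 6.79, 7.11 and 7.50 on those of Jak2VF, and 7.40, 7.44 and 7.37 on those of Jak2VF_Ezh2KO. Its difference was 1.44 ± 0.23 (SE, adjusted p = 0.310), or 2.71-fold, with a gap of 0.52, beside the 0.02 of Jak2. Tjp1, a tight-junction scaffold, was 5.78, 6.62 and 5.94 on the WT arrays, 7.24, 7.15 and 7.17 on those of Jak2VF, and 7.87, 7.63 and 7.15 on those of Jak2VF_Ezh2KO, a difference of 1.25 ± 0.21 (SE, adjusted p = 0.310). Rec8, a meiotic cohesin subunit, was 5.78, 5.71 and 5.82 on the WT arrays, 6.46, 6.71 and 7.18 on those of Jak2VF, and 6.47, 6.63 and 6.89 on those of Jak2VF_Ezh2KO, a difference of 0.96 ± 0.16 (SE, adjusted p = 0.310). The WT arrays of Rec8 lay close together. Map2k2, the kinase MEK2, and Rnf19b, a ubiquitin ligase, differed by 0.53 ± 0.10 and 0.54 ± 0.11 (SE, adjusted p = 0.446 and 0.457). The Map2k2 difference was 0.29 in Jak2VF and 0.76 in Jak2VF_Ezh2KO. Parm1, Scamp3, Vti1a and Phlda1, named after their values were seen for gaps of at least 0.25, differed by between 0.62 and 0.83.

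On the lower side, 6 of the 15 named genes with the smallest p-values lay in the dimmer part of the array. Cyp2c38, a cytochrome P450 gene, was 6.23, 5.62 and 5.71 on the WT arrays, 5.04, 4.37 and 4.87 on those of Jak2VF, and 4.83, 4.74 and 4.57 on those of Jak2VF_Ezh2KO, a difference of -1.12 ± 0.18 (SE, adjusted p = 0.310). Oog1, an oocyte gene of a multicopy family, was 8.46, 6.77 and 7.70 in WT and between 5.46 and 6.43 in the mutants, and its other probe set overlapped at -0.82. Other separated genes were Cyp2d40, Cyp2j6, Plac8l1, Nlrp9c, Eldr, Psma8, Pawr, Tdpoz1, Spry3, Catsperg2 and Prex2, with differences between -1.01 and -0.38. Fbp1, a gluconeogenesis enzyme, was 7.46, 7.23 and 5.83 in WT and between 5.52 and 5.82 in the mutants, so WT array 3 lay 0.01 above the nearest mutant array. Slc36a4, an amino acid transporter, was brighter, at 10.46, 10.21 and 10.17 in WT and between 9.49 and 9.99 in the mutants. Its other, dimmer probe set gave 0.41 with overlap, in the opposite direction. Mean receptor-gene signal was 4.22, 3.87 and 4.32 on the WT arrays, 4.31, 3.83 and 3.92 on those of Jak2VF, and 3.94, 4.05 and 3.90 on those of Jak2VF_Ezh2KO.

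The rule of separation did not require an equal difference from WT in both genotypes. The direct contrast of Jak2VF_Ezh2KO with Jak2VF gave 10 genes at an adjusted p under 0.05 over all genes (0.0451%). Of these, 0 were among the 466 separated genes, which are 2.1% of all genes. At an unadjusted p under 0.05 this contrast gave 1529 genes (6.89%), 14 of the 238 higher (5.88%) and 7 of the 228 lower (3.07%). Neither share of the separated genes was above that of all genes. Fam169a, named for a small p, was 4.80, 4.97 and 4.85 on the WT arrays, 5.12, 5.01 and 5.05 on those of Jak2VF, and 5.83, 5.99 and 5.94 on those of Jak2VF_Ezh2KO, so most of its difference was in the knockout group (0.85 ± 0.12 between mutants, SE, adjusted p = 0.0542). Il18r1, the interleukin-18 receptor, was 0.89 ± 0.18 higher in the knockout group (SE, adjusted p = 0.253), and Mcpt8 0.94 ± 0.31 (SE, adjusted p = 0.550). Map2k2 was also higher there, by 0.46 ± 0.12 (SE, adjusted p = 0.383). Cyp2d40 and H2-Eb1 were lower there, by -0.51 ± 0.13 and -0.42 ± 0.16 (SE, adjusted p = 0.376 and 0.646). Igtp differed between the mutant groups by -0.06 ± 0.19, Nlrc5 by -0.06 ± 0.14, Iigp1 by 0.02 ± 0.37 and Usp18 by 0.0036 ± 0.19 (SE). These errors leave room for differences in either direction, most for Iigp1.

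Identical values on several arrays were common in the deposited table. At least 2 of the 6 mutant arrays read exactly the same value for 30.5% of all genes, 37.4% of the separated higher genes and 37.3% of the separated lower genes. At least 3 did so for 10.2% of all genes, 31 of the 238 higher genes and 29 of the 228 lower genes, among them Nlrc5, Irgm1, Ms4a2, Socs3 and Lyz1. How far this narrows the spread within the mutant groups was not tested.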

How the data were processed

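Gene expression was measured in 9 samples of sorted cells, 3 per group, from 10 ng of RNA amplified and biotin-labelled, per the labels' protocols. The authors deposited log2 values of 41345 probe sets, and the submitters' processing notes name Partek 6.6. The sources used here do not give the background correction, normalization or summary, and no further normalization was applied. The platform annotation gave 23521 probe sets 1 symbol, 1814 several and left 16010 unnamed here. Where a gene had several single-symbol probe sets (1082 genes), the one with the highest mean was kept, which left 22180 genes.

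Differences were tested with limma (version 3.58.1, R 4.3.3) on all 9 arrays in 1 fit of 3 groups (6 residual degrees of freedom, prior 3.83) and the contrast of the mean of both mutant groups against WT. Adjusted p-values are Benjamini-Hochberg values over all genes, two-sided. The fit was tested on simulated data. Groups of 3 arrays limit the precision of every difference.

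The members and gene lists were chosen with earlier results of these data known. Of 813 list genes, 723 were measured. Named were, among separated genes, the 15 each way with the smallest p, up to 5 separated members per list and direction, up to 2 members per list with the smallest p, and Jak2, Ezh2 and Ezh1. H2-Ab1, H2-Aa, Irgm1, Irgm2, Ciita, Irf1, Cd48, Gata2, Socs1, Socs2, Cish, Parm1, Scamp3, Vti1a, Phlda1, Prex2, the genes at the edge of the rule and the gate markers were added after values were seen. Alternatives were other variance models, scalings, filters, probe sets, array weights, a replicate block, covariates for sex and receptor signal, and each array left out in turn.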

Additional observations from a re-analysis of the deposited data

Results flagged for a closer look

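In Jak2VF array 2, 4 separated genes and 2 list means lay far from the other 5 mutant arrays: Scamp3 at 8.57 (nearest 8.19), Ms4a2 at 5.49 (nearest 4.82), Tgfb1 at 9.72 (nearest 9.25) and Hdc at 5.34 (nearest 5.13). The mean of the cell cycle and DNA replication list was 0.66 there relative to WT (nearest 0.17), and that of the Polycomb list 0.24 (nearest 0.094). Ezh1 was low in Jak2VF array 1, at 7.14 (nearest 7.50). These were 7 of 130 genes and lists screened for a single distant array, and chance flags about 1 in 20.

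Itga2b, the integrin alpha-IIb of megakaryocytes and platelets, differed between the mutant groups by -1.45 (Jak2VF_Ezh2KO minus Jak2VF, limma adjusted p = 0.0441 over all genes). It was 8.07, 8.51 and 8.31 in Jak2VF, 7.08, 6.59 and 6.85 in Jak2VF_Ezh2KO, and 6.86, 7.41 and 7.10 in WT. Its adjusted p no longer passed 0.05 with the replicate block or with any 1 of the 9 arrays left out.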

How the results depend on the processing

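No gene passed the adjusted test against WT under the variance, scaling, filter, probe set, weighting, block, covariate and threshold alternatives run. With each array left out in turn the count was between 0 and 11. The counts of separated genes were between 272 and 1685 (higher) and between 256 and 1221 (lower) with arrays left out, 447 and 353 without both Y-signal arrays, 395 higher after quantile normalization and 76 lower in the brighter part of the genes. Fewer arrays make separation easier by construction.

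The replicate numbers were not taken to pair samples. Correlations of deviations between same-numbered arrays ran from -0.23 to 0.48, and 3 of 9 arrays correlated best with an array of their own number. With the replicate block 0 genes passed against WT, and the 1 named gene that differed between mutant groups, Itga2b, became 0. That count was also between 0 and 0 with any 1 array left out.

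Signs turned for 5 genes, none of them past the threshold. Jak2 was -0.042 after quantile normalization, -0.0028 with array weights, -0.061 with the sex covariate and without the Y-signal arrays, -0.0022 with the receptor covariate and -0.040 to 0.069 with arrays left out. Ezh2 was 0.0090 with the sex covariate and without the Y-signal arrays, and -0.13 to 0.036 with arrays left out. Ezh1 was -0.0057 to 0.19 with arrays left out. Socs2 was 0.0077 with array weights, -0.14 to 0.0064 with arrays left out and 0.55 on its other probe set, and Slc36a4 was 0.41 on its other probe set. The cause was not tested. Signal near the receptor genes limits what the dimmer genes show.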

Other observations

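Probe sets with no symbol or several, which name no gene here, gave 191 of 17824 (1.07%) separated on the higher side and 217 (1.22%) on the lower, and 0 passed the adjusted limma test. On the X chromosome lay 2 of the 238 higher and 14 of the 228 lower genes, beside 4.08% of all genes, and Kdm5d was the 1 Y-linked gene among them.

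T and NK cell genes held no separated member, yet 7 of 28 had an unadjusted limma p under 0.05 on the higher side, beside 3.74% of all genes. Their values lay mainly in the knockout group. Cd7, a surface protein of early lymphoid cells, was 5.15, 5.63 and 5.32 on the WT arrays, 5.24, 5.60 and 6.19 on those of Jak2VF, and 7.13, 7.43 and 8.07 on those of Jak2VF_Ezh2KO. Gzmb, a cytotoxic granule protease, was 5.14, 4.60 and 4.33 on the WT arrays, 5.13, 5.92 and 4.79 on those of Jak2VF, and 6.24, 6.26 and 5.86 on those of Jak2VF_Ezh2KO. Ccl5, a chemokine of cytotoxic cells, was between 7.32 and 8.66 in WT, between 7.51 and 8.47 in Jak2VF and between 9.38 and 9.91 in Jak2VF_Ezh2KO. The list mean, relative to WT, was between -0.07 and 0.10 in WT, between -0.09 and 0.09 in Jak2VF and between 0.31 and 0.49 in Jak2VF_Ezh2KO.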
